A study of Mus musculus with 15 samples.

Results

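The antioxidant and glutathione genes described here are 47 genes chosen by name, from superoxide dismutases to metallothioneins, of 24656 genes listed in the deposited table of ovarian RNA. All 47 were found, and all 47 reached a value of 10 or more in 5 or more of the 15 libraries. The table holds 1 library per mouse, each from polyadenylated RNA of a whole ovary of a UM-HET3 female, a stock of mixed ancestry in which every animal has its own genotype. The 5 canagliflozin ovaries came from mice 12 months old that had received the drug from 6 to 12 months of age. The 5 ovaries called 12-month controls came from untreated mice of that age, and the 5 called 6-month controls from untreated mice 6 months old. Canagliflozin inhibits SGLT2, the kidney transporter that takes glucose back from the filtrate. The comparison of canagliflozin with 12-month controls asks about the drug, that of 12-month with 6-month controls asks about age, and that of canagliflozin with 6-month controls joins both. The labels describe RNA extraction for the groups at 12 months only, and do not say whether the 6-month ovaries were handled with them, so age and handling cannot be told apart.

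Superoxide dismutases turn superoxide into hydrogen peroxide, which catalase, the glutathione peroxidases and the peroxiredoxins then remove. Glutathione and thioredoxin supply the electrons for the peroxidases and peroxiredoxins, and are reduced again by their own reductases at the cost of NADPH. The transcription factor NRF2, held back by KEAP1, switches on many of these genes under oxidant stress by binding antioxidant response elements. In the ovary, steroid-making luteal cells and granulosa cells around the egg are known as sites of high antioxidant enzyme expression.

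Promoter sequences are shown for the called members whose window held the core of the antioxidant response element and for the metallothioneins, the classic genes of the metal response element. Matches in other members are counted but not printed. RefSeq's table of promoters (GRCm38.p6, the C57BL/6J reference, a build older than the mm39 named for the deposited data) matched 40 of the 47 genes by symbol, with 51 windows of 250 bases before a transcription start. The core of the antioxidant response element was searched as TGACNNNGC on both strands. It was found in 9 of 51 windows (17.6%), against 10.2% of 32851 windows of all genes. The 3 members with a match that were called in a comparison, the peroxiredoxin Prdx1, the membrane-bound glutathione transferase Mgst1 and the copper-zinc superoxide dismutase Sod1, all carry the element on the opposite strand, so the capitals show its reverse complement. Each sequence below runs 5′ to 3′ on the strand given and ends at the base before the start.
Prdx1, chr4:116685349-116685598, + strand: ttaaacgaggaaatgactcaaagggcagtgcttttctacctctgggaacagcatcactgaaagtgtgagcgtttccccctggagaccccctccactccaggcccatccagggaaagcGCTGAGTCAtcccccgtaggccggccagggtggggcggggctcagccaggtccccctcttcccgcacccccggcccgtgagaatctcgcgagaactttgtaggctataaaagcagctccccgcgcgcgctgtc
Mgst1, chr6:138140277-138140526, + strand: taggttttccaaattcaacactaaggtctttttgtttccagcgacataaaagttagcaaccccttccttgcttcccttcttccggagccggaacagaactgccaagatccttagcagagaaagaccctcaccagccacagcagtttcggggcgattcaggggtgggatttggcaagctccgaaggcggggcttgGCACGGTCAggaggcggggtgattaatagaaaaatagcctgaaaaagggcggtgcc
Sod1, chr16:90220512-90220761, + strand: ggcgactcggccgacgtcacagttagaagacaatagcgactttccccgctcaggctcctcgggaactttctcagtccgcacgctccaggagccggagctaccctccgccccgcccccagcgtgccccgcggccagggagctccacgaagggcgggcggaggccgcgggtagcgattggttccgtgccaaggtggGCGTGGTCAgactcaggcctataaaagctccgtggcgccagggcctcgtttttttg
The core of the metal response element was searched as TGCACNC or TGCGCNC on both strands. It was found in 16 of 51 windows (31.4%), against 21.4% of the windows of all genes. It is shown for the metallothioneins Mt2 and Mt1, zinc-binding proteins induced by metals, with matches in capitals. The Mt2 window held 3 matches and the Mt1 window held 1, and the Mt2 window also held 1 antioxidant core (bases -79 to -71), left in lower case here. In Gclm the matches of the 2 cores overlapped, from base -138 to -132 and from -134 to -126. Matches of short letters describe a window and do not show that a factor binds there. Bases past the start listed by RefSeq, or more than 250 before it, were not searched, so elements there are not counted.
Mt2, chr8:94172368-94172617, + strand: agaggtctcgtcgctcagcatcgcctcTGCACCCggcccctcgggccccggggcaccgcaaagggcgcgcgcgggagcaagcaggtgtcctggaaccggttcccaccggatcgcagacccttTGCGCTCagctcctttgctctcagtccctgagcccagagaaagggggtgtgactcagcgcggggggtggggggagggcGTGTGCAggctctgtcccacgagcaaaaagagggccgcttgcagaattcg
Mt1, chr8:94178839-94179088, + strand: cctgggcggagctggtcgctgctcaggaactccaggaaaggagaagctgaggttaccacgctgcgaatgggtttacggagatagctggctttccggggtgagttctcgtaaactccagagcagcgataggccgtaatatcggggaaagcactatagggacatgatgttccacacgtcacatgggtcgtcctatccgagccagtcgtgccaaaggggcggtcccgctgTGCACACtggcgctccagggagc

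Reads recovered from the deposited values came to between 8.47 and 13.05 M (M, 1000000 reads) per canagliflozin library, 11.31 and 13.11 M per 12-month control and 11.75 and 13.63 M per 6-month control. For 3 libraries (canagliflozin replicates 4 and 5 and 6-month replicate 5) the value of 1 read was too close to 1 to be set apart from rounding, so their read totals, and the edgeR and DESeq2 counts that use them, are less certain. Values below are normalised reads, meaning that the authors scaled the reads of each library by 1 size factor, and replicates are given from 1 to 5. A gene is called when its limma adjusted p is under 0.05 over the 17569 genes tested, with fold changes taken on log2(value + 1). Markers of luteal, granulosa and egg cells were detected in every group, with luteal marker sums of 150570 to 385490 normalised reads in canagliflozin ovaries, 184022 to 316327 in 12-month controls and 201868 to 286439 in 6-month controls. The ovary is a mixture of cells, so fewer cells of a type and less RNA per cell cannot be told apart in any result below.

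Between canagliflozin and 12-month controls 0 of the 47 members were called by limma, edgeR or DESeq2, and limma called 0.00569% of all genes. At an unadjusted p under 0.05 there were 7 members (14.9%), against 9.2% of all genes. These were Sod1, Gpx3, Prdx2, Gss, Gstp1, Hmox1 and Mt1, each with the higher mean after the drug and a limma adjusted p between 0.462 and 0.543. A positive log2 fold change was found for 35 of 47 members, against 49.6% of all genes, with a median of 0.10 against -0.00. That median was 0.06 without canagliflozin replicate 2 or without 12-month replicate 4, and 0.16 without canagliflozin replicate 5. After correction for transcript length and GC content it was 0.11. In 0 members did the canagliflozin ovaries all lie to one side of the 12-month controls, as they did higher in 0.586% and lower in 0.467% of all genes.

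Between 12-month and 6-month controls 0 of the 47 members were called by limma, against 12.4% of all genes (5.4% higher and 7.01% lower). edgeR called 0 members and 2224 of all 17569 genes. DESeq2 called 3 members, namely Glrx2, Gsta4 and Keap1, and 2960 genes. An unadjusted p under 0.05 was found for 5 members (10.6%), against 27.4% of all genes, and these were Gsta4, Glrx2, Keap1, Txnip and Gstm2. The log2 fold change was positive for 27 members, with a median of 0.05 against 0.00 over all genes. The median did not keep its sign, being -0.00 without 12-month replicate 2, and it ran up to 0.12 without 12-month replicate 5. Values over 1.5 times away were also found without 12-month replicate 1 (0.07), 3 (0.01) or 4 (0.09) and without 6-month replicate 2 (0.07), 3 (0.11), 4 (0.02) or 5 (0.02). The 12-month controls lay wholly above the 6-month controls for Glrx2 and Gsta4, 4.26% of members, against 5.63% of all genes, and wholly below them for 0 members, against 8.07%.

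Between canagliflozin and 6-month controls 14 of 47 members (29.8%) were called, against 28.4% of all genes, so the share of members was near the background. The direction was uneven, with 12 members higher (25.5%, against 13.5% of all genes) and 2 lower (4.26%, against 14.9%). The members that rose were Sod1, Gpx3, Gpx4, Prdx1, Prdx2, Prdx5, Txn2, Glrx2, Gss, Gsta4, Gstp1 and Mgst1, and those that fell were Sod3 and Txnip. The median log2 fold change over all 47 was 0.13, against 0.01 over all genes. It was 0.21 without canagliflozin replicate 1, 0.25 without 6-month replicate 3 and 0.08 without 6-month replicate 4. Canagliflozin ovaries lay wholly above 6-month controls for 5 members (10.6%, against 8.05% of all genes), namely Sod1, Prdx2, Txn2, Gss and Gsta4, and wholly below them for 0 members, against 10.4%. At an unadjusted p under 0.05 there were 19 members (40.4%), against 40.5% of all genes. edgeR called 15 members and 5174 of all 17569 genes, and DESeq2 called 17 members and 5769 genes. Both counts of members include Gsta1, which passed the filter mainly through canagliflozin ovaries. With limma, 9 members were called without 6-month replicate 2 (4070 genes) and 9 without 6-month replicate 5 (4247 genes). The calls of 8 members, Sod1, Gpx3, Gpx4, Prdx2, Txnip, Gss, Gsta4 and Gstp1, were kept under all 27 alternative settings. Of 9 granulosa markers 3 were higher by limma and 0 lower, against 13.5% and 14.9% of all genes. Their median log2 fold change was 0.54. Their sums were 31603 to 69992 normalised reads in canagliflozin ovaries, 32186 to 62226 in 12-month controls and 19850 to 37149 in 6-month controls, with no marker at 0 in a group, and their part in the counts of members was not tested.

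**Figure D1:**
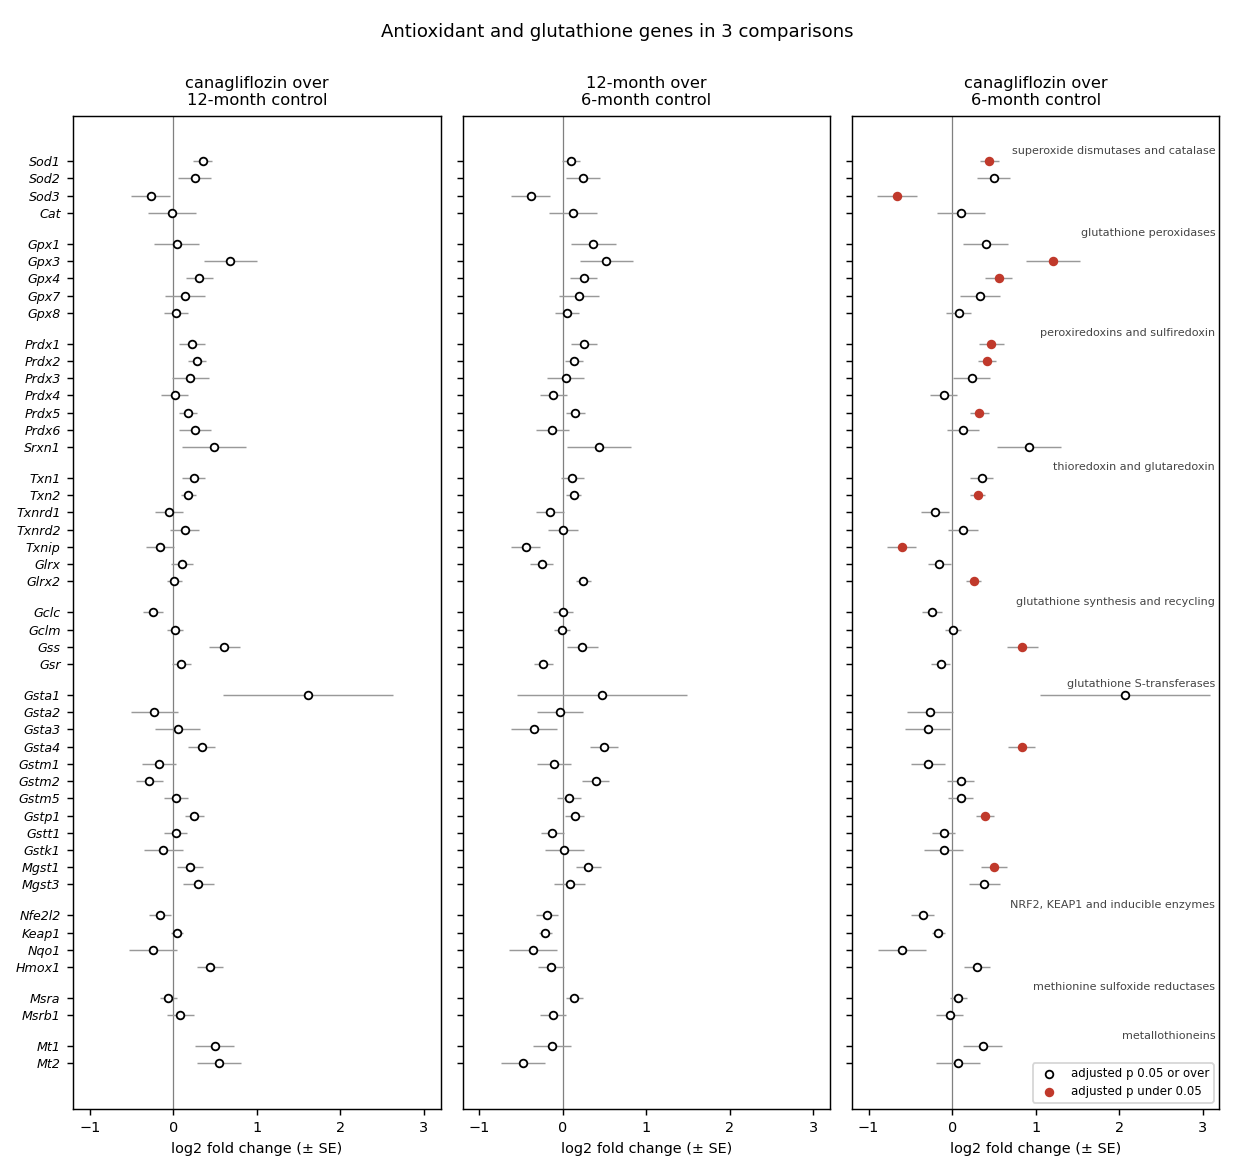
Log2 fold change (x axis, with bars of 1 standard error) of the 47 genes, listed down the page by class, in the 3 comparisons. Filled points mark limma adjusted p under 0.05, of which there are 14, all in the right panel, with 12 to the right of 0 and 2 to the left.

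Superoxide dismutases and catalase stand at the head of the chain. Sod1, the copper-zinc enzyme of the cytosol, had 4405, 5272, 4359, 4536 and 4922 normalised reads in canagliflozin ovaries, 3456, 3842, 4447, 3629 and 3155 in 12-month controls and 3472, 3164, 4174, 2878 and 3642 in 6-month controls. Every canagliflozin ovary was above every 6-month control, and replicate 3 of the 12-month controls reached into the canagliflozin range. Sod1 rose between canagliflozin and 6-month controls (log2 fold change 0.45, SE 0.11, limma adjusted p = 0.00803). The change was 0.35 against 12-month controls (SE 0.11, limma adjusted p = 0.462) and 0.10 between the control ages (SE 0.11, limma adjusted p = 0.617).

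Sod3, the secreted dismutase of the extracellular matrix, went the other way. It had 849, 2440, 1018, 1545 and 1034 normalised reads in canagliflozin ovaries, 1284, 1649, 1722, 1322 and 1802 in 12-month controls and 1730, 2238, 2758, 1708 and 1813 in 6-month controls. Canagliflozin replicate 2 lay inside the 6-month range and the other 4 lay below it. The call was the weakest of the 14 (log2 fold change -0.66, SE 0.24, limma adjusted p = 0.0483). It was lost under 18 of 27 alternatives, while without canagliflozin replicate 2 the change was -0.89 (limma adjusted p = 0.00226). Between the control ages Sod3 had a log2 fold change of -0.39 (SE 0.24, limma adjusted p = 0.314).

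Stromal marker sums were lower in canagliflozin ovaries than in 6-month controls, as Sod3 was, and followed Sod3 in some libraries but not in others. Among 6-month controls replicates 2 and 3 had the highest stromal sums (28900 and 27393 normalised reads) and the highest Sod3, and replicate 4 was lowest in both. Among canagliflozin ovaries replicates 2 and 4 were highest in both (stromal sums 16534 and 16736 normalised reads). Other libraries went another way. Canagliflozin replicate 1 had the lowest Sod3 of its group with a stromal sum of 16180 normalised reads. Replicate 3 of the 12-month controls had the lowest stromal sum of its group with 1722 normalised reads of Sod3. Summed stromal markers were 11060 to 16736 normalised reads in canagliflozin ovaries, 11125 to 21404 in 12-month controls and 19821 to 28900 in 6-month controls. Of 6 stromal markers 3 were lower in canagliflozin ovaries than in 6-month controls (limma), against 14.9% of all genes. Of 5 smooth muscle markers 3 were lower as well. No marker of either list was at 0 in a group, and their part in the Sod3 difference was not tested. The mitochondrial dismutase Sod2 and catalase, the peroxisomal enzyme, were not called in the main fit. Sod2 was called between canagliflozin and 6-month controls by DESeq2 and without canagliflozin replicate 1. Sod2 ranged from 1186 to 2643 normalised reads in canagliflozin ovaries, from 1184 to 1883 in 12-month controls and from 995 to 1406 in 6-month controls, and Cat from 857 to 2774, from 1080 to 2146 and from 1070 to 2024 in the same groups.

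Glutathione peroxidases all had positive fold changes, 5 of 5 in each comparison, against 49.6%, 50.5% and 50.8% of all genes with drug, age and both. The log2 fold changes with drug and with age add up to the third, and those of Gpx8 were at most 0.08 (SE 0.14). Of the 5 genes 2 were called between canagliflozin and 6-month controls, both higher, against 13.5% of all genes. Gpx3, the secreted enzyme, had the highest level per kilobase of transcript of all 47 members in every group, at 25966 normalised reads per kilobase in canagliflozin ovaries, 15095 in 12-month controls and 10838 in 6-month controls. It had 25779, 59852, 61276, 64883 and 23590 normalised reads in canagliflozin ovaries, 30258, 19585, 25876, 23572 and 37542 in 12-month controls and 17601, 22256, 12298, 31489 and 14601 in 6-month controls. Canagliflozin replicates 2, 3 and 4 lay above all control ovaries, and replicates 1 and 5 lay inside the range of both control groups.

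Gpx3 had the largest log2 fold change among the called members, at 1.21 (SE 0.32, limma adjusted p = 0.0114) against 6-month controls. Against 12-month controls the change was 0.68 (SE 0.32, limma adjusted p = 0.543), and between control ages it was 0.52 (SE 0.32, limma adjusted p = 0.315). With the level of luteal markers as a covariate, the change against 6-month controls was 0.93 (limma adjusted p = 0.0235). The luteal sums of canagliflozin replicates 1 to 5 were 150570, 385490, 227306, 350484 and 291739 normalised reads. Replicate 5, with the lowest Gpx3 of its group, was thus above replicate 3 in luteal sum, while replicates 2 and 4, with the highest luteal sums, had high Gpx3. Among 12-month controls replicates 1 and 5 had the highest luteal sums (316327 and 293726 normalised reads) and the highest Gpx3, and replicate 2 was lowest in both. Among 6-month controls replicate 2 had the lowest luteal sum (201868 normalised reads) but more Gpx3 than replicate 1, with the highest (286439). The part of luteal content in the Gpx3 difference was not tested.

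Gpx4, which reduces lipid peroxides within membranes, had 831, 1295, 1106, 1210 and 1112 normalised reads in canagliflozin ovaries, 821, 712, 1289, 817 and 890 in 12-month controls and 975, 686, 724, 610 and 781 in 6-month controls. Of the canagliflozin ovaries only replicate 1 fell within the 6-month range. Gpx4 rose between canagliflozin and 6-month controls (log2 fold change 0.56, SE 0.16, limma adjusted p = 0.0165), with changes of 0.31 (SE 0.16) against 12-month controls and 0.25 (SE 0.16) between control ages. The cytosolic peroxidase Gpx1 and the endoplasmic reticulum enzymes Gpx7 and Gpx8 were not called, with log2 fold changes of 0.40, 0.33 and 0.08 between canagliflozin and 6-month controls (SE 0.27, 0.24 and 0.14).

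The table also lists Gpx4-ps2, a pseudogene copy, which held more reads than Gpx4 itself. Gpx4-ps2 averaged 4782 ± 752 normalised reads in canagliflozin ovaries, 3604 ± 1057 in 12-month controls and 2652 ± 441 in 6-month controls (SD, n = 5 each). Gpx4 took 17.6 to 20.2% of the sum of both in canagliflozin ovaries, 19.1 to 22.0% in 12-month controls and 20.7 to 23.1% in 6-month controls. The sum was 4574 to 6867 normalised reads in canagliflozin ovaries, 3703 to 6737 in 12-month controls and 2702 to 4221 in 6-month controls, so canagliflozin and 6-month ovaries did not overlap. Gpx4-ps2 was itself called between canagliflozin and 6-month controls (log2 fold change 0.85, SE 0.17, limma adjusted p = 0.00178). How reads were split between gene and copy is uncertain.

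**Figure D2:**
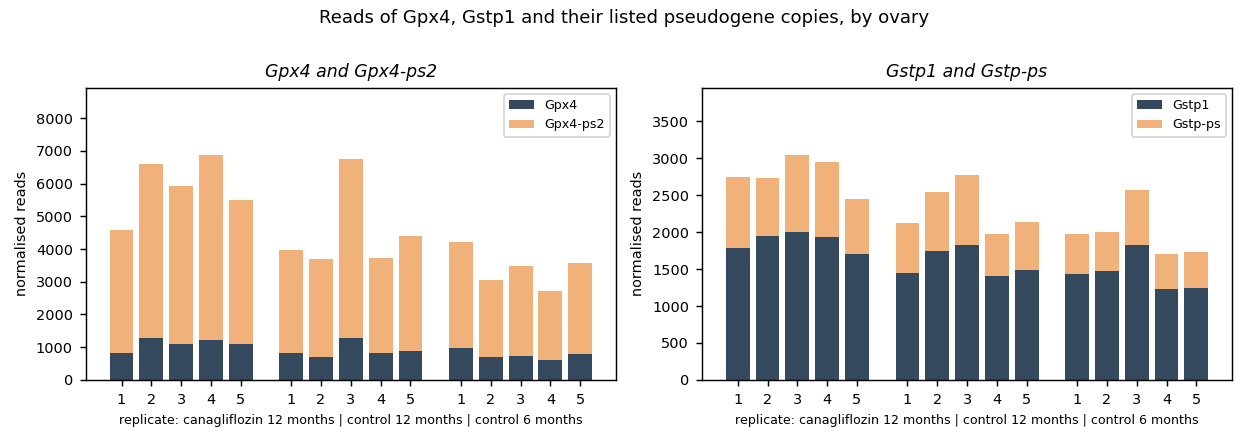
Normalised reads (y axis) of Gpx4 with Gpx4-ps2 and of Gstp1 with Gstp-ps, stacked for each of the 15 ovaries (x axis, replicates 1 to 5 of canagliflozin, then of 12-month controls, then of 6-month controls). The lower part of a bar is the gene and the upper part its listed copy, and Gpx4 makes up 17.6 to 23.1% of its bars.

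Peroxiredoxins are abundant thiol peroxidases, and 3 of the 7 genes of this class were called, all of them higher in canagliflozin ovaries than in 6-month controls. Of all genes 28.4% were called in that comparison, and 13.5% were called higher. Prdx1 of the cytosol had 4555, 9057, 6956, 7470 and 6933 normalised reads in canagliflozin ovaries, 6168, 4844, 6999, 5244 and 6303 in 12-month controls and 5372, 4368, 5404, 4890 and 4689 in 6-month controls. Canagliflozin replicate 1 lay within the 6-month range and the other 4 lay above it. Prdx1 rose (log2 fold change 0.47, SE 0.15, limma adjusted p = 0.0311), but the call was lost under 10 of 27 alternatives, among them the fit with luteal markers as a covariate (0.34, limma adjusted p = 0.0702).

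Prdx2, the second cytosolic member, had 5850, 6435, 5049, 5466 and 5782 normalised reads in canagliflozin ovaries, 4502, 4768, 5731, 4471 and 4177 in 12-month controls and 4929, 4125, 4299, 3624 and 4532 in 6-month controls. All canagliflozin ovaries were above all 6-month controls, and only replicate 3 of the 12-month controls entered the canagliflozin range. The rise against 6-month controls was 0.41 (log2 fold change, SE 0.11, limma adjusted p = 0.00932), beside 0.28 (SE 0.11, limma adjusted p = 0.482) against 12-month controls and 0.14 (SE 0.11, limma adjusted p = 0.445) between control ages. Red cells are rich in peroxiredoxin 2, and summed red cell markers were 1457 to 7442 normalised reads in canagliflozin ovaries, 168 to 18087 in 12-month controls and 738 to 2319 in 6-month controls. Replicate 3 of the 12-month controls had both the highest red cell sum and the highest Prdx2 of its group. Replicate 5 of that group, with a red cell sum of 4300 normalised reads, had the lowest Prdx2. Canagliflozin replicate 3 and 6-month replicate 4 had the highest red cell sum and the lowest Prdx2 of their groups. The call of Prdx2 against 6-month controls was kept with red cell markers as a covariate, a setting chosen after seeing the data (log2 fold change 0.40, limma adjusted p = 0.0188). The part of red cell content in the Prdx2 difference was not tested.

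Prdx5, found in mitochondria and peroxisomes, had 1388, 1201, 1527, 1376 and 1064 normalised reads in canagliflozin ovaries, 1169, 1245, 1314, 1071 and 992 in 12-month controls and 1028, 1154, 1170, 926 and 939 in 6-month controls. Only canagliflozin replicate 5 lay within the 6-month range. The rise was small (log2 fold change 0.33, SE 0.11, limma adjusted p = 0.0375). Its call was lost under 8 of 27 alternatives. Srxn1, sulfiredoxin, which repairs overoxidised peroxiredoxins, varied most within groups apart from Gsta1, with a coefficient of variation of 58.3% in canagliflozin ovaries and 47.3% in 12-month controls. Its highest value was 3045 normalised reads in canagliflozin replicate 3, and its log2 fold change against 6-month controls was 0.92 (SE 0.38, limma adjusted p = 0.0883). In that comparison Srxn1 was called by edgeR, by DESeq2 and with luteal or red cell markers as a covariate. Mitochondrial Prdx3, secretory-pathway Prdx4 and cytosolic Prdx6 were not called, with changes of 0.24, -0.10 and 0.13 against 6-month controls (SE 0.22, 0.16 and 0.20).

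Thioredoxin and glutaredoxin genes were split, with 2 of 7 higher and 1 lower in canagliflozin ovaries than in 6-month controls, against 13.5% and 14.9% of all genes. Txnip, whose protein binds thioredoxin and restrains glucose uptake, and whose transcription follows glucose supply, had 7639, 11333, 7139, 9765 and 8824 normalised reads in canagliflozin ovaries, 11413, 9674, 8745, 11984 and 8023 in 12-month controls and 10772, 14928, 10830, 13271 and 18794 in 6-month controls. Canagliflozin replicate 2 alone reached the 6-month range. Txnip fell by 0.61 on the log2 scale between canagliflozin and 6-month controls (SE 0.17, limma adjusted p = 0.0158). Between control ages the log2 fold change was -0.45 (SE 0.17, limma adjusted p = 0.104), and between canagliflozin and 12-month controls it was -0.16 (SE 0.17, limma adjusted p = 0.775).

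Mitochondrial thioredoxin, Txn2, had 1525, 1400, 1519, 1682 and 1304 normalised reads in canagliflozin ovaries, 1299, 1487, 1448, 1209 and 1137 in 12-month controls and 1259, 1100, 1265, 1188 and 1183 in 6-month controls. The canagliflozin and 6-month ranges did not overlap, though the gap was narrow. Txn2 rose against 6-month controls (log2 fold change 0.31, SE 0.09, limma adjusted p = 0.0200), a call lost when canagliflozin replicate 4 or 6-month replicate 2 was left out.

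The mitochondrial glutaredoxin Glrx2 had 398, 490, 429, 416 and 490 normalised reads in canagliflozin ovaries, 457, 439, 431, 457 and 417 in 12-month controls and 401, 317, 391, 378 and 372 in 6-month controls. All 12-month controls were above all 6-month controls, and canagliflozin replicate 1 fell just inside the 6-month range. Glrx2 rose between canagliflozin and 6-month controls (log2 fold change 0.26, SE 0.09, limma adjusted p = 0.0364, lost under 10 of 27 alternatives). The change between control ages was of like size at 0.25 (SE 0.09, limma adjusted p = 0.0750), while that between canagliflozin and 12-month controls was 0.01 (SE 0.09, limma adjusted p = 0.978). Cytosolic Txn1 and Glrx and the thioredoxin reductases Txnrd1 and Txnrd2 were not called, with changes against 6-month controls of 0.35, -0.15, -0.20 and 0.13 (SE 0.14, 0.13, 0.17 and 0.18).

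Glutathione is made in 2 steps, and the genes of those steps differed. Gss, glutathione synthetase, which adds the last amino acid, had 484, 571, 852, 762 and 406 normalised reads in canagliflozin ovaries, 434, 326, 369, 353 and 478 in 12-month controls and 385, 387, 352, 299 and 250 in 6-month controls. Every canagliflozin ovary exceeded every 6-month control, and all but replicate 5 exceeded every 12-month control. Gss rose against 6-month controls (log2 fold change 0.84, SE 0.19, limma adjusted p = 0.00383). Its change of 0.61 against 12-month controls (SE 0.19) had the smallest unadjusted p of the members in that comparison (0.00517), with a limma adjusted p of 0.462.

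The first and rate-limiting step is run by glutamate-cysteine ligase, whose catalytic subunit is Gclc and whose modifier subunit is Gclm. Gclc ranged from 751 to 1067 normalised reads in canagliflozin ovaries, from 905 to 1296 in 12-month controls and from 969 to 1294 in 6-month controls. Its log2 fold change was -0.25 against 12-month controls (SE 0.12, limma adjusted p = 0.554) and -0.24 against 6-month controls (SE 0.12, limma adjusted p = 0.150). Gclm had log2 fold changes between -0.01 and 0.02 in the 3 comparisons (SE 0.09). Gsr, glutathione reductase, had 462, 603, 495, 482 and 520 normalised reads in canagliflozin ovaries, 413, 484, 527, 432 and 546 in 12-month controls and 580, 500, 680, 481 and 594 in 6-month controls. The 3 ranges of Gsr overlapped, with the lowest log2 fold change at -0.24 between control ages (SE 0.11, limma adjusted p = 0.187).

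Glutathione S-transferases attach glutathione to reactive compounds, and 3 of 12 were called, all higher in canagliflozin ovaries than in 6-month controls. Of all genes 28.4% were called there, 13.5% of them higher and 14.9% lower as shares of all genes, so the share of transferases called was near the background. Gsta4, which clears the lipid peroxidation product 4-hydroxynonenal, had 1749, 1031, 1299, 1209 and 1128 normalised reads in canagliflozin ovaries, 832, 1180, 1414, 839 and 848 in 12-month controls and 825, 768, 706, 598 and 665 in 6-month controls. Both older groups lay wholly above the 6-month controls, the 12-month controls by a narrow gap. Gsta4 had the smallest adjusted p of the 47 members (log2 fold change 0.83, SE 0.16, limma adjusted p = 0.00166). Between control ages the change was 0.49 (SE 0.16, limma adjusted p = 0.0597), and it was called with luteal markers as a covariate (0.55) and without canagliflozin replicate 1 (0.49). Against 12-month controls the change with the drug was 0.34 (SE 0.16, limma adjusted p = 0.548).

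Gstp1, the pi-class enzyme, had 1791, 1950, 1998, 1931 and 1706 normalised reads in canagliflozin ovaries, 1441, 1746, 1830, 1405 and 1489 in 12-month controls and 1433, 1468, 1825, 1234 and 1242 in 6-month controls. Replicate 3 of the 6-month controls was the only one of its group within the canagliflozin range. Gstp1 rose against 6-month controls (log2 fold change 0.39, SE 0.11, limma adjusted p = 0.0149). Its listed copy Gstp-ps rose as well (log2 fold change 0.72, SE 0.15, limma adjusted p = 0.00279), averaging 908 ± 138 normalised reads in canagliflozin ovaries, 732 ± 148 in 12-month controls and 555 ± 110 in 6-month controls (SD, n = 5 each). Gstp1 took 65.1 to 71.4% of the sum of both in canagliflozin ovaries, 65.9 to 71.2% in 12-month controls and 71.1 to 73.1% in 6-month controls. The sums were 2447 to 3043 normalised reads in canagliflozin ovaries, 1973 to 2779 in 12-month controls and 1699 to 2568 in 6-month controls.

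Mgst1, the microsomal enzyme, had 3845, 5922, 4470, 6837 and 4770 normalised reads in canagliflozin ovaries, 4864, 4013, 3870, 4160 and 5324 in 12-month controls and 3663, 3273, 4524, 3598 and 2965 in 6-month controls. Canagliflozin replicates 1 and 3 lay within the 6-month range. Mgst1 rose against 6-month controls (log2 fold change 0.50, SE 0.15, limma adjusted p = 0.0229), a call lost with luteal markers as a covariate (0.38, limma adjusted p = 0.0507) and after correction for transcript length and GC content (0.30, limma adjusted p = 0.183). The 3 promoters printed above for the antioxidant core thus belong to 1 call kept under all alternatives, Sod1, and to 2 that were not, Prdx1 and Mgst1.

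Transferases of the mu class were abundant but not called. Gstm1 was second in level per kilobase in canagliflozin ovaries (3594 normalised reads per kilobase) and in 12-month controls (4057), and Gstm2 had a log2 fold change of 0.39 between control ages (SE 0.16, limma adjusted p = 0.131). A listed copy of it, Gstm2-ps1, fell by 0.75 on the log2 scale between canagliflozin and 6-month controls (SE 0.22, limma adjusted p = 0.0182). Gsta1, a close paralog of Gsta2, rested on 17, 0, 77, 59 and 10 recovered reads in canagliflozin ovaries, 16, 4, 1, 4 and 5 in 12-month controls and 10, 4, 1, 9 and 0 in 6-month controls. Its counts scatter too widely for the log2 fold change of 2.07 (SE 1.02, limma adjusted p = 0.141) to be read closely. Gsta1 passed the filter mainly through canagliflozin ovaries, and no 6-month control reached 10 (highest value 9.48 normalised reads). Its calls by edgeR and DESeq2 between canagliflozin and 6-month controls therefore give no support to a rise. The other 6 transferases, Gsta2, Gsta3, Gstm5, Gstt1, Gstk1 and Mgst3, had limma adjusted p above 0.05 in every comparison.

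**Figure D3:**
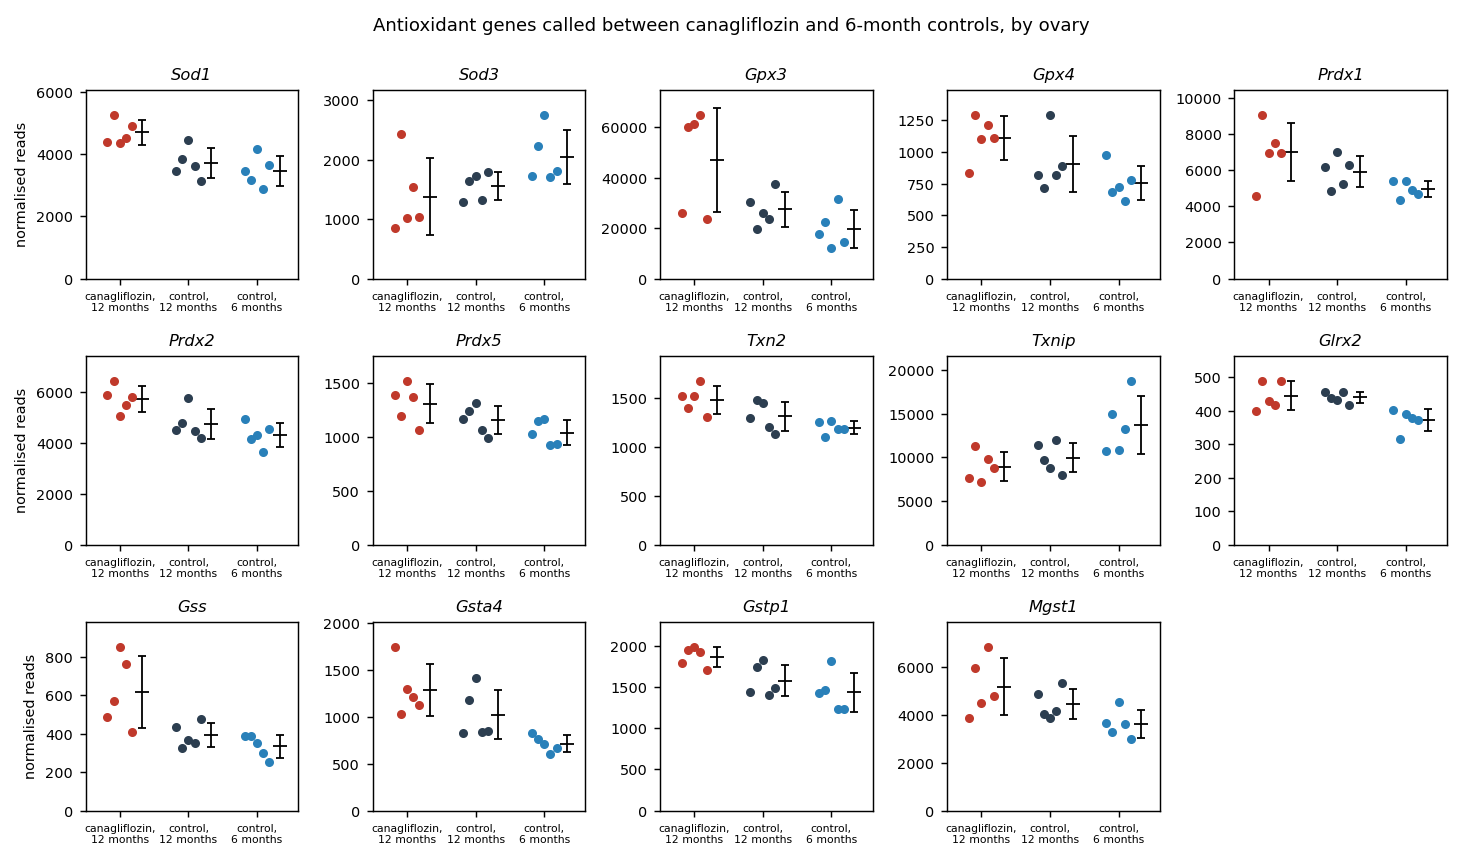
Normalised reads (y axis, from 0) per ovary for the 14 genes called between canagliflozin and 6-month controls, with canagliflozin, 12-month and 6-month controls from left to right. Points are the 5 ovaries of a group in replicate order, and the bar beside them is the mean with 1 SD; in 12 panels the canagliflozin mean is the highest, and for Sod3 and Txnip it is the lowest.

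The regulators of the pathway, Nfe2l2 and Keap1, were not called in the main limma fit. Nfe2l2, which encodes NRF2, ranged from 929 to 1499 normalised reads in canagliflozin ovaries, from 1234 to 1695 in 12-month controls and from 1442 to 1990 in 6-month controls, with a log2 fold change of -0.36 between canagliflozin and 6-month controls (SE 0.13, limma adjusted p = 0.0559). In that comparison Nfe2l2 was among the members called lower by DESeq2 and with luteal markers as a covariate. Limma also called it lower without canagliflozin replicate 2, without canagliflozin replicate 5 and without 6-month replicate 3. Keap1, whose protein marks NRF2 for breakdown, had 987, 934, 1048, 977 and 969 normalised reads in canagliflozin ovaries, 906, 1016, 970, 883 and 998 in 12-month controls and 1131, 1160, 1231, 1019 and 984 in 6-month controls. Keap1 was the member with the least spread in canagliflozin ovaries (coefficient of variation 4.20%). Its change between control ages was -0.21 (SE 0.08, limma adjusted p = 0.0876), and it was 0.014 (limma adjusted p = 0.933) after correction for transcript length and GC content.

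Hmox1, haem oxygenase, which breaks down haem and is induced by oxidants, had 959, 1536, 1357, 1299 and 988 normalised reads in canagliflozin ovaries, 924, 1120, 727, 894 and 831 in 12-month controls and 974, 903, 1325, 921 and 854 in 6-month controls. Canagliflozin replicates 2, 3 and 4 exceeded all 12-month controls, and replicates 1 and 5 did not. The log2 fold change was 0.44 against 12-month controls (SE 0.15, limma adjusted p = 0.462) and -0.14 between control ages (SE 0.15, limma adjusted p = 0.590). Nqo1, the quinone reductase used as a readout of NRF2, was low, at 36.0 to 71.5 normalised reads in canagliflozin ovaries, 42.0 to 79.6 in 12-month controls and 51.6 to 137 in 6-month controls, and was not called.

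Metallothioneins had the largest class median between canagliflozin and 12-month controls, at 0.52 over 2 genes, without a call. Mt1 had 3399, 4569, 3481, 3928 and 2935 normalised reads in canagliflozin ovaries, 2252, 2711, 3223, 2229 and 2578 in 12-month controls and 2918, 3861, 4354, 1463 and 2464 in 6-month controls. Mt2 had 1219, 1383, 1135, 1124 and 1086 normalised reads in canagliflozin ovaries, 782, 1089, 857, 718 and 674 in 12-month controls and 1115, 1747, 1878, 537 and 943 in 6-month controls. For both genes only replicate 5 of the canagliflozin ovaries lay within the 12-month range, and the 6-month controls had the widest range of the 3 groups, with values of Mt1 and Mt2 both below and above all 12-month controls. Against 12-month controls the log2 fold change was 0.49 for Mt1 (SE 0.23, limma adjusted p = 0.543) and 0.54 for Mt2 (SE 0.26, limma adjusted p = 0.547). Between control ages Mt2 had a change of -0.48 (SE 0.26, limma adjusted p = 0.257), which was -0.75 (limma adjusted p = 0.0215) without 6-month replicate 4, its lowest library.

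Methionine sulfoxide reductases repair oxidised methionine, and neither member was called. Msra had 204, 212, 262, 256 and 225 normalised reads in canagliflozin ovaries, 242, 258, 273, 227 and 212 in 12-month controls and 219, 221, 241, 215 and 205 in 6-month controls, so the 3 groups overlapped throughout. The log2 fold change of Msra was -0.06 with the drug (SE 0.10, limma adjusted p = 0.852) and 0.14 with age (SE 0.10, limma adjusted p = 0.422). Msrb1, a selenoprotein, had changes of 0.08, -0.12 and -0.03 in the comparisons of drug, of age and of both (SE 0.16).

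**Figure D4:**
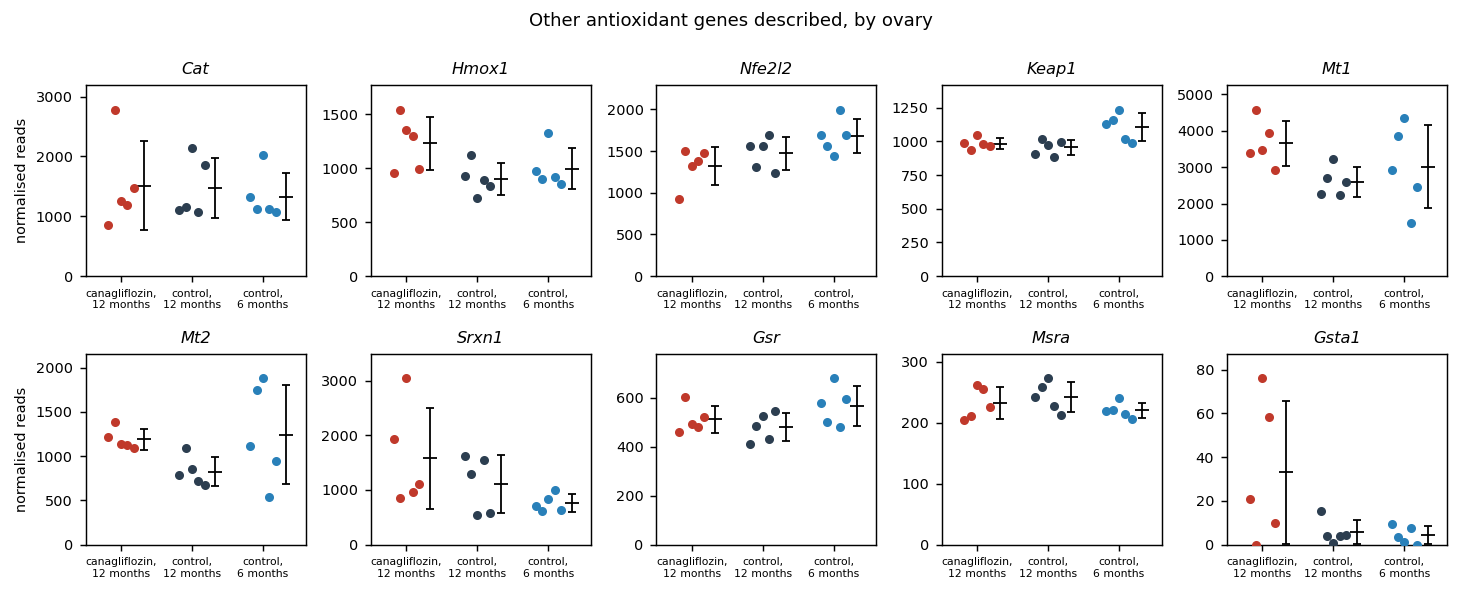
Normalised reads (y axis, from 0) per ovary for 10 further genes, with canagliflozin, 12-month and 6-month controls from left to right. Points are the 5 ovaries of a group in replicate order with mean and 1 SD beside them, and in each panel the canagliflozin points overlap both control groups.

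Single libraries led many members at once. Canagliflozin replicate 2 had the highest value of its group in 24 of 47 members, among them Sod1, Sod3, Cat, Gpx4, Prdx1, Txnip, Hmox1, Mt1 and Mt2, and it was also the shallowest library (8.47 M reads) and the one with the highest luteal marker sum. Replicate 3 of the 6-month controls was highest in 28 of 47 members and had the highest macrophage marker sum of all libraries (6205 normalised reads). The median coefficient of variation over the 47 members was 18.8% in canagliflozin ovaries, 16.1% in 12-month controls and 17.0% in 6-month controls. The part of luteal and macrophage content in these library patterns was not tested.

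Transcript length moved with direction over all genes when canagliflozin ovaries were set against 6-month controls. The 17287 of 17569 tested genes with a known length were put in 5 bins of like size. In the shortest bin (136 to 1479 bases) 20.8% of genes were higher and 8.87% lower, the median log2 fold change being 0.22. That bin holds 21 of the 47 members, of which 4 were higher. In the next bin (1480 to 2526 bases) 11.3% of genes were higher, and 5 of the 8 members there. In the 3 longer bins 3 of 18 members were higher and 2 lower, against 9.35 to 15.6% and 17.2 to 20.1% of the genes there. After correction of each library for length and GC content 11 members were called, 10 higher and 1 lower, beside 4839 of the 17287 genes. The calls of Sod3, Prdx1 and Mgst1 were lost. The median log2 fold change of the members was 0.17 after the correction, beside 0.13 before it. Between canagliflozin and 12-month controls the median over all genes ran from 0.12 in the shortest bin to -0.07 in the longest.

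**Figure D5:**
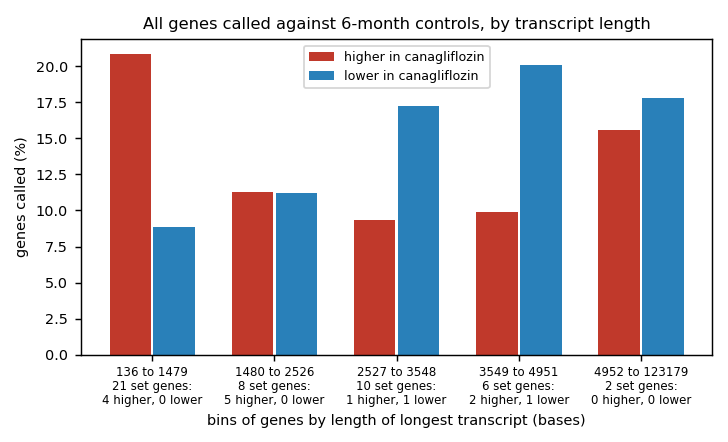
Percentage of genes called higher or lower in canagliflozin ovaries than in 6-month controls (y axis), in 5 bins of the 17287 tested genes with a known length, by length of the longest transcript (x axis, bases), with the number of antioxidant and glutathione genes (set genes) under each. Genes called higher are most frequent in the shortest bin (20.8%), which holds 21 of the 47.

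Other genes of the pathway, taken from 5 lists by name, had 0 calls between canagliflozin and 12-month controls (25, 16, 26, 19 and 15 genes tested). The genes with the smallest unadjusted p there were Hagh and Esd of glutathione metabolism (log2 fold change 0.42 and 0.26), Idh2 and Pgls of NADPH supply (-0.23 and 0.22), Selenok and Msrb3 of thiol redox and repair (0.45 and -0.39), Ftl1 and Ephx1 of the NRF2 list (0.47 and -0.39), and Nos3 and Cybb of the oxidant sources (0.29 and -0.32). Their limma adjusted p ran from 0.462 upwards. Between control ages 7 of the 101 genes tested in the 5 lists were called (6.93%, against 12.4% of all genes). Abcc5, an exporter of glutathione conjugates, Selenok, a selenoprotein of the endoplasmic reticulum, and Rbx1, a subunit of the ligase that KEAP1 recruits, were higher at 12 months (log2 fold change 0.56, 0.54 and 0.28). The folate enzyme Mthfd1, the stress protein Sesn2, the haem transporter Slc48a1 and the neuronal nitric oxide synthase Nos1 were lower (-0.44, -0.52, -0.41 and -0.98).

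Between canagliflozin and 6-month controls 29 of these 101 genes were called (28.7%, against 28.4% of all genes, so the share was near the background). The other glutathione genes had 5 of 25 higher, against 13.5% of all genes, and 2 lower, against 14.9%. Abcc5 averaged 1786 ± 203 normalised reads in canagliflozin ovaries and 1157 ± 53.9 in 6-month controls (SD, n = 5 each; log2 fold change 0.62, limma adjusted p = 0.00148). Hagh, a glyoxalase, and Chac2, which degrades glutathione, rose by 0.67 and 0.44 on the log2 scale, and Ggt5, a gamma-glutamyltransferase, fell by 0.48 (limma adjusted p = 0.00657, 0.0181 and 0.0207). NADPH supply was mixed, with 2 of 16 higher and 3 lower. The mitochondrial enzymes Mthfd2 and Me2 rose by 0.71 and 0.35 on the log2 scale (limma adjusted p = 0.0128 and 0.0359). Mthfd1 and the mitochondrial isocitrate dehydrogenase Idh2 fell by 0.62 and 0.48 (limma adjusted p = 0.000935 and 0.00343).

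The list of thiol redox and repair genes had 2 of 26 higher and 3 lower in the same comparison, against 13.5% and 14.9% of all genes. Selenok averaged 1420 ± 349 normalised reads in canagliflozin ovaries and 700.05 ± 41.4 in 6-month controls (SD, n = 5 each; log2 fold change 0.98, limma adjusted p = 0.000227), and Park7, a redox-sensing chaperone, rose by 0.42 (limma adjusted p = 0.0100). Msrb3, a methionine sulfoxide reductase, and Selenop, the selenium carrier, fell by 0.71 and 0.73 on the log2 scale (limma adjusted p = 0.000918 and 0.0038). Of the NRF2 regulators and other inducible genes 4 of 19 were higher and 5 lower, against 13.5% and 14.9% of all genes. Rbx1 and the NRF2 partner Mafg rose by 0.46 and 0.40 on the log2 scale, and Slc48a1 and the epoxide hydrolase Ephx1 fell by 0.43 and 0.79 (limma adjusted p = 0.00108, 0.00701, 0.00306 and 0.00457).

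Sources of oxidants had 0 of 15 genes higher and 3 lower in canagliflozin ovaries than in 6-month controls, against 13.5% and 14.9% of all genes, so the number lower was near the background. Cybb, the catalytic subunit of the phagocyte NADPH oxidase, averaged 103 ± 28.4 normalised reads in canagliflozin ovaries and 178 ± 33.0 in 6-month controls (SD, n = 5 each; log2 fold change -0.81, limma adjusted p = 0.0149). Nos1 and the inducible nitric oxide synthase Nos2 fell by 1.29 and 0.80 on the log2 scale (limma adjusted p = 0.000755 and 0.0184). Of 8 macrophage markers 3 were lower in the same comparison, with sums of 1974 to 4244 normalised reads in canagliflozin ovaries and 3536 to 6205 in 6-month controls and no marker at 0 in a group. The part of macrophage content in the Cybb difference was not tested.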

How the data were processed

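RNA-seq libraries of polyadenylated RNA came from 15 ovaries, 5 per group, with groups taken from the sample titles. The deposited values are a signal per gene and library, and their steps show that the authors scaled the reads of each library by 1 size factor. Reads were recovered as whole multiples of the step in all 15 libraries. In 12 the step could be set apart from 1, and in the other 3 it could not be told from rounding, so their reads are less certain. Per the submitters' processing notes Partek 11.0 and build mm39 were used. What aligner, counter, strand setting, annotation and normalization were used is not given in the sources used here, and the labels' protocols state a read depth far below the recovered totals.

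Genes reaching 10 in 5 or more libraries (17569 of 24656; 7087 left out) were tested on log2(value + 1) with limma 3.58.1 (R 4.3.3; trend and robust variance), all 15 libraries in 1 fit, with Benjamini-Hochberg adjustment over all genes and a threshold of 0.05. This scale understates changes of low genes. edgeR 4.0.16 and DESeq2 1.42.0 were run on recovered reads. Other alternatives were pseudocounts of 0.5 and 5, no filter or one of 50, only the groups compared, a replicate block, TMM rescaling, a luteal marker covariate and each library left out. The length and GC correction and the red cell covariate were chosen after seeing the data. Levels per kilobase use exon lengths of GENCODE M21, which is of another build. The test was checked on simulated data.

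Replicate libraries all differed beyond sampling noise (chi-square per degree of freedom 12.4 to 56.4 over 30 pairs), so each counts as 1 replicate. The 47 genes and the wider lists were chosen with earlier results of these data known. Library values are given for every member called in any comparison and, per class, for the member with the smallest p with drug and with age. From the wider lists the up to 4 called genes with the smallest p are named, or otherwise the 2 with the smallest p. Gsta1, Gclc, Nfe2l2, Srxn1, Sod2, Cat, Nqo1 and other members outside this rule are given by range or fold change only, except the reads of Gsta1, which were chosen after its values were seen.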

Additional observations from a re-analysis of the deposited data

Results flagged for a closer look

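Hmox1 in replicate 3 of the 6-month controls stood apart from the rest of its group, at 1325 normalised reads against 974 in the next library. It was the only value of this kind among 60 groups of 5 libraries examined (20 genes in 3 groups), and about 1 in 20 groups is marked by chance. The same library was the highest of its group in 28 of 47 members and had the highest macrophage marker sum, whose part in the value was not tested.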

How the results depend on the processing

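Of the 14 members called between canagliflozin and 6-month controls, 8 kept the call and its direction under all 27 alternatives, and the other 6 lost it under some (Sod3 18, Prdx1 10, Glrx2 10, Prdx5 8, Mgst1 5, Txn2 2), while none of the 14 changed sign. The log2 fold change of Keap1 between control ages turned to 0.014 under the length and GC correction, and the cause was not tested. Genes called between canagliflozin and 12-month controls, 1 with limma, were 9 with edgeR, 63 with DESeq2, 2 with no filter, 0 with only the groups compared, 3 with a replicate block, 2 with the luteal covariate, 0 with the length and GC correction and 2 with the red cell covariate, and 0 to 37 with 1 library left out (37 without canagliflozin replicate 5). Members called between control ages, 0 with limma, were 3 with DESeq2 (2960 genes called) and 1 (Gsta4) with the luteal covariate (2875 genes). With 1 library left out 0 to 1 members were called, beside 1537 to 2403 genes. These were Gsta4 without canagliflozin replicate 1 and Mt2 without 6-month replicate 4. Members called between canagliflozin and 6-month controls were 9 to 15 with 1 library left out, beside 3930 to 5320 genes. Sod2, Gpx7, Srxn1, Txn1, Gsta1, Gstm5, Mgst3 and Nfe2l2 were called there only under some of the alternatives. Replicate numbers did not pair the samples: correlations of same-numbered libraries ran from -0.30 to 0.25, at most 1 of 5 libraries in a comparison correlated best with its own number, and with the replicate block 3, 2126 and 4912 genes and 0, 0 and 13 members were called with drug, age and both. Gsta1 rested on 0 to 77 recovered reads per library, and 5 mice per group limit every comparison.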
